A study of Mus musculus with 13 samples.

Results

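The net change of Thy1.2-sorted mouse retinal cells over early postnatal life was measured by comparing RNA-seq libraries made at postnatal day 21 (P21) with libraries made at postnatal day 1 (P1). The comparison used 5 of the 13 libraries of the series, 2 at P21 and 3 at P1, and the 3 libraries made at postnatal day 14 (P14) served to separate changes that lasted from changes seen at P14 alone. All 8 libraries came from wild type mice, without viral injection or nerve injury, and retinal ganglion cells (RGCs) were sorted from papain-dissociated retinas with an antibody to the surface protein Thy1.2. The libraries of an age are described as biological replicates, and how many animals each holds is not stated. Of 20890 genes that passed the low-count filter, 696 lie on chromosome X or Y and are left out, which leaves 20194 genes for every count given here.

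RGCs are the output neurons of the retina, and their axons form the optic nerve. At birth they are postmitotic and still extend axons, while rods, bipolar cells and Müller glia are being generated by progenitors around them. Over the next weeks retinal synapses form, the eyes open, and the capacity of RGCs to regrow axons is lost.

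The libraries held between 30357454 and 38812917 counts. Some libraries of the same age stood apart, and the fold changes below move with it. Of 8411 genes at 20 CPM (counts scaled to the library's total) or more in P21 replicate 2, none lay below 5% of that level in P1 replicate 1 or replicate 2, against 108 genes in P1 replicate 3. Below 10% of that level lay 8 and 4 genes in the former libraries, and 381 in P1 replicate 3. In the other direction, of 8021 genes at 20 CPM or more in P1 replicate 3, 195 lay below 5% of that level in P21 replicate 2 and 52 in P21 replicate 1. In these genes P1 replicates 1 and 2 were thus nearer to P21 than P1 replicate 3 was. P21 replicate 1 was nearer to P1 than P21 replicate 2 was. Against P14 the order depended on the limit, among 8834 genes at 20 CPM or more in P14 replicate 1. Below 5% of that level lay 12 genes in P1 replicate 3, against 111 and 93 in P1 replicates 1 and 2. Below 10% lay 404 genes in P1 replicate 3, against 256 and 211. Counts of 4 Y-linked genes were between 1983 and 2768 in the P1 libraries, between 0 and 49 at P14, and 5520 and 4999 at P21, so Y-linked levels moved with age. The P14 libraries were almost free of Y-linked RNA, and the P1 and P21 libraries did not overlap. In P21 against P1 as in changes that rest on P14, the age and the sex make-up of the libraries cannot be told apart. The part of either difference in the results was not tested. Carry-over of RNA or reads between libraries was not tested either, and it would bear on CPM, fold changes and classes alike. Of 235 genes that the naming rule picked, the fold from P1 to P21 moved by more than 1.5 times for 38 with P1 replicate 3 alone standing for P1, and for 33 without P21 replicate 1, all 33 towards lower values. Such values are given beside the largest changes and some of the courses that turn on them.

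**Figure D1:**
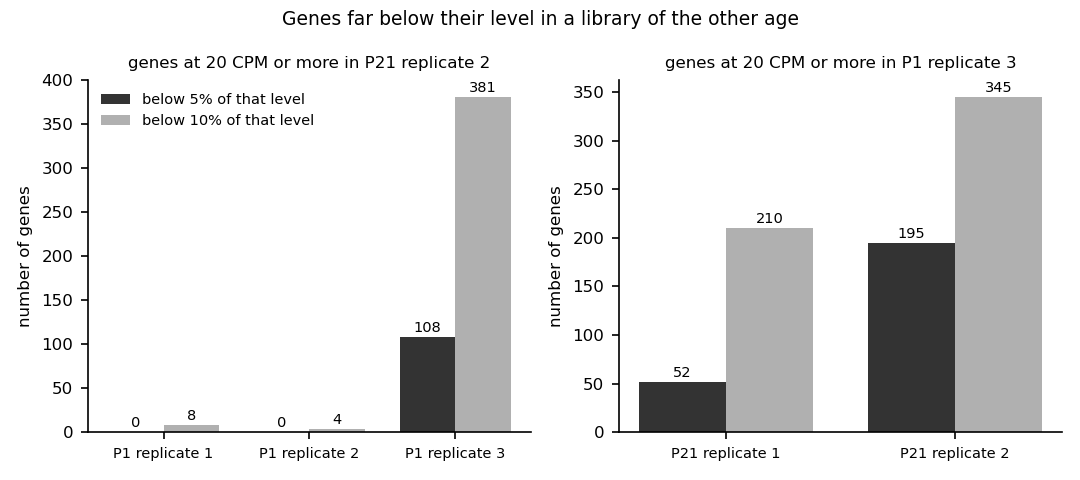
Number of genes (vertical axis) far below their level in a library of the other age, for genes at 20 CPM or more in P21 replicate 2 (left, 3 P1 libraries) and in P1 replicate 3 (right, 2 P21 libraries). Dark bars count genes below 5% of that level and grey bars genes below 10%; P1 replicates 1 and 2 have 0 genes below 5%, against 108 in P1 replicate 3.

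The sorted cells were checked against RGC markers first. A list of 30 RGC markers took 1.00%, 0.977% and 1.07% of all counts in the 3 P1 libraries, between 0.175% and 0.190% at P14, and 0.126% and 0.0852% at P21. A list of 24 Müller glia markers took 0.668%, 0.717% and 0.284% of counts at P1, between 2.73% and 2.88% at P14, and 4.76% and 5.02% at P21. The P1 and P21 shares did not overlap in either list, and the defining RGC markers were high at P1 but low at P21, against the label of the later libraries. In sorted bulk samples fewer cells of a type and less RNA per cell cannot be told apart, and every comparison below is of the sorted population and not of RGCs alone.

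To show which sequences stand before the genes that moved together, promoter windows from 250 bases before to 50 bases after each RefSeq start (build GRCm38.p6) were searched on both strands for short motifs. Stretches of 120 bases from before the start are printed 5′ to 3′ on the strand of the gene, with the match in capitals. The first is from Hmgcs1, an enzyme of cholesterol synthesis that fell over maturation, at chr13:119690158-119690277 on the plus strand, and it holds the sterol regulatory element letters TCACNCCAC. Tef and Bhlhe41, genes of the circadian clock list that rose, hold the E-box CACGTG at chr15:81802489-81802608 on the plus strand and chr6:145865511-145865630 on the minus strand. Dusp1, an immediate early gene that rose, holds the cyclic AMP response element TGACGTCA at chr17:26508552-26508671 on the minus strand. Aipl1 of photoreceptors and Trpm1 of ON bipolar cells, which both rose, hold the homeobox letters TAATCC (here as GGATTA on the other strand) at chr11:72037510-72037629 on the minus strand and chr7:64153715-64153834 on the plus strand.
Hmgcs1: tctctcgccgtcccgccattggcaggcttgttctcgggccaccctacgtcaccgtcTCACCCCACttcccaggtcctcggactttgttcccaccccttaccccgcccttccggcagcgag
Tef: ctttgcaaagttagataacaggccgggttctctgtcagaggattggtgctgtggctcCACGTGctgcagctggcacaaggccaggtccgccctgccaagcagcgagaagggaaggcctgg
Bhlhe41: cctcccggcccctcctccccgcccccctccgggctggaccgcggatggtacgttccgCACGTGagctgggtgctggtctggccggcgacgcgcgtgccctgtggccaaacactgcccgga
Dusp1: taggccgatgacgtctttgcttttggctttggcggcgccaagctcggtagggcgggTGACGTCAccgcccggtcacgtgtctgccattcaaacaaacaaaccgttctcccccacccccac
Aipl1: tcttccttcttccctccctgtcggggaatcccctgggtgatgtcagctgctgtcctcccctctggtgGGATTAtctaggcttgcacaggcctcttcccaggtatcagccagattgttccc
Trpm1: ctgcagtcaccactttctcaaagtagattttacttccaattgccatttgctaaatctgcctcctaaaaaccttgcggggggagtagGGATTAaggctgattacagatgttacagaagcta

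Comparing P21 with P1 by edgeR, 4083 genes were higher (20.2% of the genes tested) and 3657 were lower (18.1%). The limits are those the study set for a differentially expressed gene (DEG): an adjusted p below 0.05 by the method of Benjamini and Hochberg, and more than 1 on the log2 scale in either direction. The libraries of both ages did not overlap for 7700 of these 7740 DEGs. By the adjusted p alone, 6919 genes were higher (34.3%) and 6742 lower (33.4%), and the median log2 fold change over all genes was 0.02. Where a DEG averaged 3 or more in log2 CPM, the largest rise was 3.53 and the largest fall 5.91 on the log2 scale. In the same set 0 rises passed 4, while 118 falls passed -4. Both extremes depend on the libraries used. With P1 replicate 3 alone for P1, the log2 fold changes of C4b and Gsg1 were 6.31 and 6.23. Without P21 replicate 1 that of Pak6 was -8.85.

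To learn which of these changes were lasting, the DEGs of P14 against P1 (4012 higher, 19.9%, and 3056 lower, 15.1%) and of P21 against P14 (544 higher, 2.69%, and 1865 lower, 9.24%) were used. The comparisons share libraries, so the classes that follow describe courses and are not independent tests. Most of the net change was already a DEG at P14. A lasting change, a DEG in the same direction at both ages against P1, was found for 3128 higher genes (15.5%) and 2570 lower genes (12.7%), which is 76.6% of the higher and 70.3% of the lower DEGs. From P14 to P21, 163 of the lasting higher genes rose further, 424 fell part way back and 2541 were no DEG. Of the lasting lower genes 486 fell further, 12 rose part way back and 2072 were no DEG. Changes confined to P14, which were DEGs against P1 and again in the opposite direction at P21 but no DEG between P21 and P1, numbered 431 higher (2.13%) and 85 lower (0.421%). Late changes, DEGs at P21 against both P1 and P14 but no DEG at P14, numbered 198 higher (0.98%) and 410 lower (2.03%). Gradual changes, DEGs over the whole span and in neither step, numbered 753 higher (3.73%) and 645 lower (3.19%). A further 4 higher and 32 lower DEGs had crossed, with a DEG in the opposite direction at P14.

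**Figure D2:**
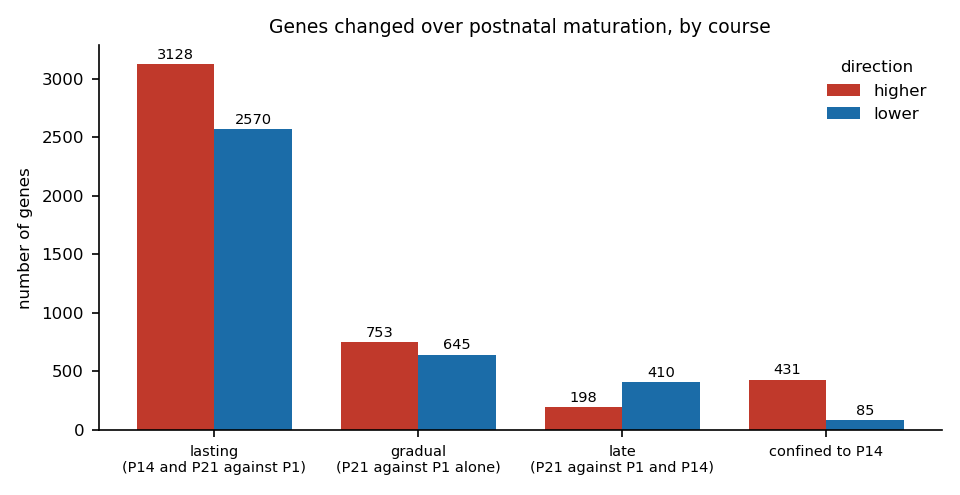
Number of genes (vertical axis, of 20194) in each course over postnatal maturation, red for higher and blue for lower. Lasting changes are 3128 higher and 2570 lower genes, and changes confined to P14 are 431 higher and 85 lower genes.

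The genes that fell most and stayed low were RGC identity and axon genes. Pou4f1 (chr14:104461676-104467999, minus strand), the POU-domain factor BRN3A that marks RGCs, was at 648, 649 and 668 CPM at P1, 19.4, 21.2 and 33.7 CPM at P14, and 24.2 and 1.15 CPM at P21. Its log2 fold change from P1 to P21 was -5.68 ± 0.87 (SE, n = 3 and 2, edgeR adjusted p = 0.000246). Both P21 libraries lay far below P1, but they differed from each other, and with P21 replicate 2 alone for P21 the log2 fold change was -9.19. Islr2 (chr9:58196297-58204319, minus strand), a membrane protein of growing axons, was at 1587, 1524 and 1689.9 CPM at P1 and at 65.3 and 2.19 CPM at P21 (log2 fold change -5.56 ± 1.09, edgeR adjusted p = 0.00121). Stmn2, a regulator of microtubules in growing axons, went from 1603, 1619 and 1747 CPM to 73.2 and 7.65 CPM, a log2 fold change of -5.35 ± 0.78. The same gap between the P21 libraries stood in each of these genes.

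The transcription factor genes Pou4f2 (-5.26 ± 0.64), Isl2 (-5.21 ± 0.53) and Irx4 (-5.37 ± 0.44) and the genes Pak6, Stk32b, Nkain1, Nell2, Igfbpl1, Ecel1 and Cpne4 were also among the 14 largest falls of DEGs with 3 or more in mean log2 CPM, which lay between -5.91 and -5.21 and were all lasting. In all 14 the value without P21 replicate 1 was lower still, between -9.56 and -6.21.

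Of the 30 RGC markers, 28 fell, 1 rose and 1 did not pass the test, with a median log2 fold change of -4.09 at P21 and -2.53 at P14, against 0.02 and -0.01 over all genes. In this count and those of the other lists below, a member rose or fell by its adjusted p alone, read against the 34.3% and 33.4% of all genes. The neurofilament gene Nefl, the tubulin gene Tubb3 (2188, 2111 and 2312 CPM at P1, 116 and 33.7 CPM at P21) and the RNA-binding protein gene Rbpms (615, 613 and 664 CPM at P1, 48.6 and 20 CPM at P21) fell by 4.76, 4.87 and 4.20 on the log2 scale. Thy1, whose product was the sorting target, was at 539, 505 and 571 CPM at P1, 187, 183 and 185 CPM at P14, and 92.2 and 70 CPM at P21 (log2 fold change -2.73 ± 0.11, edgeR adjusted p = 4.17e-08), so its level dropped at both steps. Not all markers followed the early fall. Opn4, the melanopsin of intrinsically photosensitive RGCs, was at 60.5, 65.6 and 70.3 CPM at P1 and still at 53.6, 59 and 54.6 CPM at P14, and was at 11.5 and 6.29 CPM at P21, a late fall (log2 fold change from P14 -2.64 ± 0.20, edgeR adjusted p = 2.07e-05). Nefh, Trarg1 and Mmp17 fell late as well, while Jam2, an adhesion molecule, rose by 0.56 and Isl1, which bipolar cells also express, fell by 0.49. Cartpt was at a log2 fold change of -0.30 ± 0.16 and did not pass (edgeR adjusted p = 0.126).

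Genes of axon growth and immature neurons fell almost as a group: of 44 tested, 41 fell and 3 rose, with a median of -2.85 at P21 and -2.20 at P14, and 32 were lasting falls. Gap43, the growth-cone protein, was at 1158, 1113 and 1232 CPM at P1 and at 57 and 18.4 CPM at P21 (log2 fold change -4.95 ± 0.44, edgeR adjusted p = 4.93e-06). Sox11, a transcription factor of young neurons, went from 167, 182 and 177 CPM to 12.1 and 7.35 CPM (-4.17 ± 0.18). Stmn1 went from 1394, 1342 and 1431 CPM at P1 to 139.6, 143 and 167 CPM at P14 and stood at 187 and 152 CPM at P21 (-3.04 ± 0.11), and the step from P14 to P21 did not pass (0.18 ± 0.10). The axon guidance receptor genes Plxna4 (2.08 ± 0.14, a late rise) and Unc5c (0.56) and the ephrin ligand gene Efnb2 (0.37) were the 3 members that rose.

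**Figure D3:**
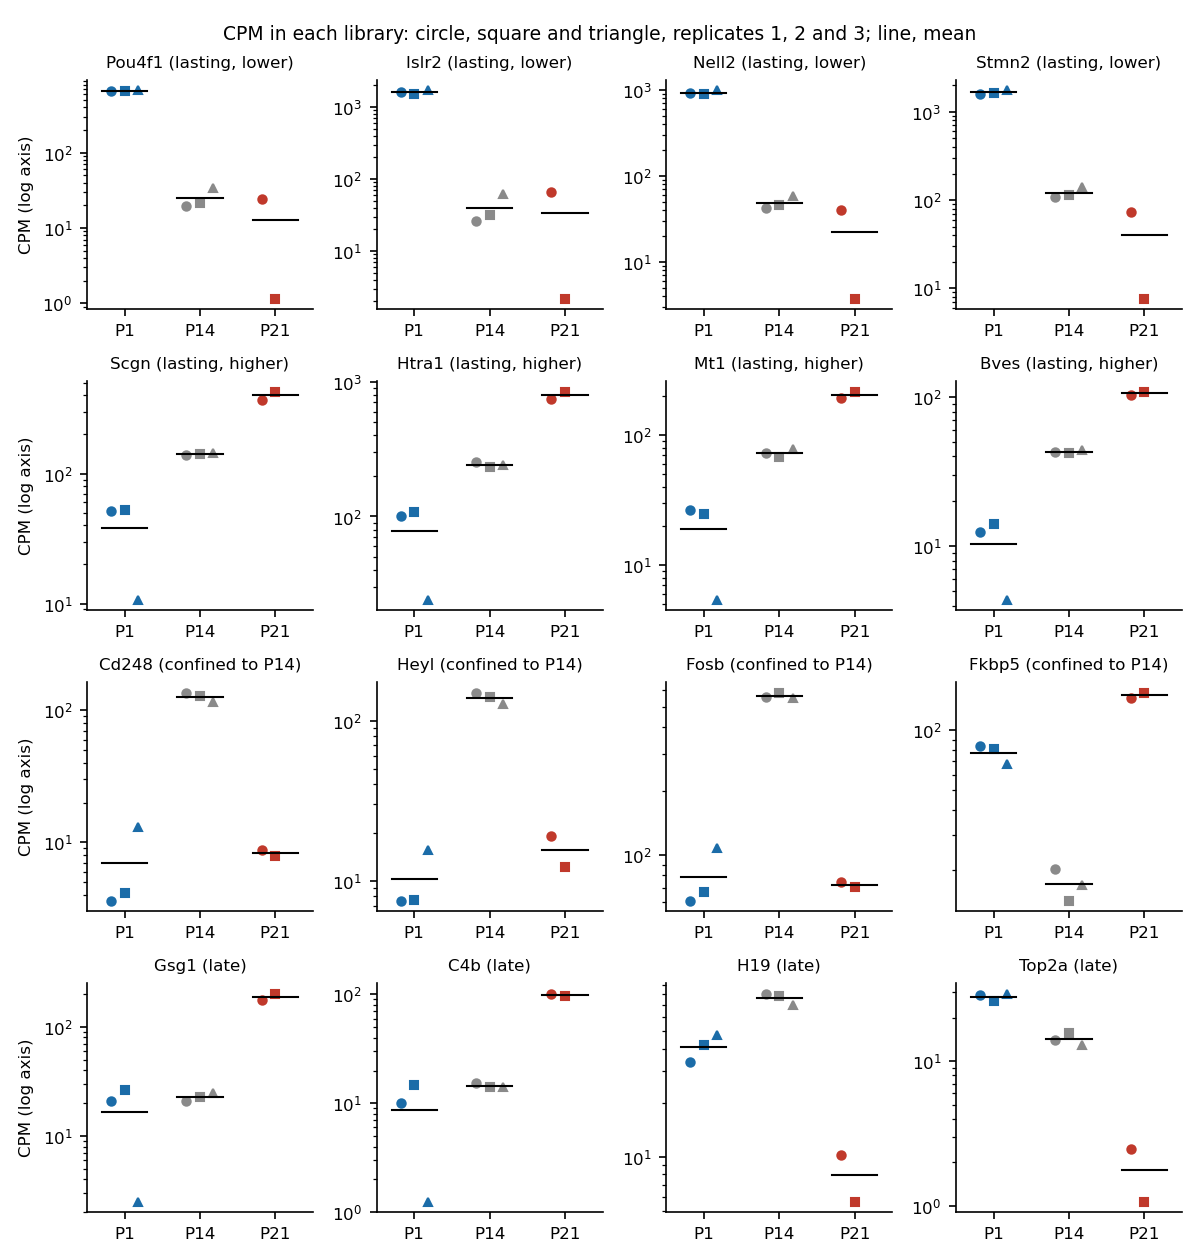
CPM (vertical log axes, scaled per gene) of 16 genes in each of the 3 P1, 3 P14 and 2 P21 libraries; symbols mark replicate numbers and lines are means. Rows show lasting falls, lasting rises, changes confined to P14 and late changes; P1 replicate 3 lies below replicates 1 and 2 in the lasting rises, and P21 replicate 2 below replicate 1 in the lasting falls.

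The genes that rose most were lasting for 12 of the 14 named, and late for Gsg1 and C4b. Scgn, the calcium-binding protein secretagogin of bipolar cells, was at 51.3, 52.7 and 10.7 CPM at P1, 138, 142 and 143 CPM at P14, and 371 and 428 CPM at P21 (log2 fold change of P21 over P1 3.39 ± 0.48, edgeR adjusted p = 0.000145). Htra1 (chr7:130936111-130985660, plus strand), a secreted serine protease, was at 100.2, 109 and 24.1 CPM at P1 and 744 and 844 CPM at P21 (3.36 ± 0.47). Mt1, a metallothionein that binds zinc, went from 26.5, 24.9 and 5.42 CPM to 191 and 216 CPM (3.43 ± 0.45), and Bves, a membrane protein of cell contacts, from 12.6, 14.1 and 4.37 CPM to 103 and 109 CPM (3.37 ± 0.32). In each gene the P21 libraries lay above every P1 library, and P1 replicate 3 lay below the other P1 libraries. With P1 replicate 3 alone for P1, the log2 fold changes of Scgn, Htra1, Mt1 and Bves were 5.21, 5.03, 5.22 and 4.59. The other lasting rises were of Cacna1s, BC055402, Fam107a, Abca6, Cck, Cyp27a1, Slc8b1 and Cyp2d22, between 3.36 and 3.49, and with P1 replicate 3 alone between 4.70 and 5.88.

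Müller glia are the radial glia that span the retina, and all 24 of their markers rose and stayed high (median 3.00 at P21, 2.27 at P14). Glul, glutamine synthetase, was at 2276, 2430.1 and 803 CPM at P1, between 7589 and 8063 CPM at P14, and 15826 and 16874 CPM at P21 (3.15 ± 0.36, edgeR adjusted p = 2.8e-05). Sox9, a glial transcription factor, was at 21.6, 22.3 and 16 CPM at P1, 138, 139 and 138 CPM at P14, and 149 and 160.0 CPM at P21 (2.95 ± 0.12), and Vim, the intermediate filament vimentin, was 1.99 ± 0.07 higher at P21. Glul rose between P14 and P21 as well (1.05 ± 0.35, edgeR adjusted p = 0.0421), and the step of Sox9 was 0.16 ± 0.11 and did not pass. P1 replicate 3 was the lowest P1 library for all 3 of these genes.

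Photoreceptor and bipolar cell genes rose too. Of 34 rod markers 28 rose and 5 fell (median 1.98 at P21, 2.27 at P14). Aipl1, a chaperone of the phototransduction phosphodiesterase whose promoter is printed above, was at 11, 11.3 and 10.7 CPM at P1, 54.1, 51.3 and 55.8 CPM at P14, and 50.2 and 53.5 CPM at P21 (2.24 ± 0.07). Nrl, the rod-determining transcription factor, was confined to P14, with 12.5, 11.8 and 14.6 CPM at P1, 39.3, 30.8 and 39.6 CPM at P14, and 9.7 and 8.63 CPM at P21. The rod genes that fell included Gnb1, which many neurons express, Rgs9 (-1.66 ± 0.07) and Nr2e3, a late fall of 1.95. Of 11 cone markers 9 rose, among them Kcne2 (2.75 ± 0.09) and Gnat2 (2.85 ± 0.23), while Rxrg, a retinoid receptor of cones and young RGCs, fell from 62.9, 61.6 and 65.4 CPM to 3.91 and 2.76 CPM (-4.24 ± 0.17).

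Of 19 bipolar markers 18 rose (median 3.00 at P21, 2.74 at P14), with 17 lasting. Trpm1, the cation channel of ON bipolar cells, was at 113, 123 and 93 CPM at P1, 1179, 1164 and 1081 CPM at P14, and 801 and 915 CPM at P21 (2.97 ± 0.11, edgeR adjusted p = 2.67e-08). Grik1, a kainate receptor of OFF bipolar cells, rose late, from 74, 80.1 and 23.7 CPM at P1 and 112, 123 and 113 CPM at P14 to 427 and 480.1 CPM at P21 (from P14 1.97 ± 0.37, edgeR adjusted p = 0.00317). The homeobox letters TAATCC were in the promoter windows of 10 of 24 rod markers (41.7%), 2 of 7 cone markers (28.6%) and 3 of 16 bipolar markers (18.8%) with a window, against 8.14% of all genes with a window. A match describes these letters only.

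Other retinal neurons gave mixed counts. Of 18 amacrine markers 6 rose and 9 fell (median -0.59): Dab1, a reelin adaptor of AII amacrine cells, rose by 2.04 ± 0.08, Calb2, calretinin, fell from 1043, 1006 and 1109 CPM to 64.4 and 22.8 CPM, and Pax6, which RGCs also express, was 0.04 lower and did not pass. The genes of the GABA-synthesising enzymes peaked at P14. Gad1 was at 6.87, 6.62 and 16.8 CPM at P1, 124, 131 and 121 CPM at P14, and 14.7 and 17.4 CPM at P21, and Gad2 at 19.5, 19.6 and 20.6, then 48, 56.3 and 48.8, then 7.69 and 8.17 CPM, ending below its P1 level (-1.33 ± 0.10, edgeR adjusted p = 1.12e-06). Of 8 horizontal cell markers 5 rose and 3 fell, the falls being of Onecut1, Onecut2 and Onecut3, transcription factor genes that young RGCs also express.

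Markers of immune and vascular cells rose, and the medians of their lists were further from 0 at P14 than at P21. The share of counts fell after P14 for microglia and pericyte markers but not for endothelial markers. Of 25 microglia and macrophage markers 21 rose and 1 fell (median 1.89 at P21, 3.62 at P14), and the list took between 0.00412% and 0.00643% of counts at P1, 0.0538% to 0.0567% at P14, and 0.0146% and 0.0163% at P21. Cx3cr1, the fractalkine receptor, was at 1.63, 1.48 and 2.12 CPM at P1, 29, 29.4 and 29.5 CPM at P14, and 7.9 and 7.59 CPM at P21. Of 17 pericyte and smooth muscle markers 15 rose (median 1.47 at P21, 4.33 at P14), and their share of counts was 0.0156% to 0.0468% at P1, 0.559% to 0.622% at P14, and 0.123% and 0.0848% at P21. Pdgfrb, the receptor that marks pericytes, was at 27.8, 31.6 and 51.8 CPM at P1, 620.1, 566 and 508 CPM at P14, and 192 and 183 CPM at P21. Of 22 endothelial markers 21 rose (median 2.17 at P21, 3.29 at P14), with shares of 0.0229% to 0.0415% at P1, 0.216% to 0.230% at P14, and 0.253% and 0.253% at P21. Kdr, the VEGF receptor, was at 157, 165 and 98.8 CPM at P1, 849.6 to 896 CPM at P14, and 1004 and 1035 CPM at P21, where the last step did not pass (0.23 ± 0.17). All 6 astrocyte markers rose, among them Gfap (2.56 ± 0.21). Of 7 oligodendrocyte and myelin markers 3 rose and 4 fell, and among 7 T and B cell, 2 erythroid, 5 lens and 7 pigment epithelium genes that could be tested, 2, 0, 3 and 3 rose and 1, 0, 1 and 2 fell. The T and B cell rises were of Cd3d (0.299 and 0.273 CPM at P21) and Cd3g (0.38 and 0 CPM), near the floor and at 0 CPM in every P1 library. The mean share of counts of that list fell from 0.00137% at P1 to 0.000677% at P21. The part of these cells in the classes was not tested.

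**Figure D4:**
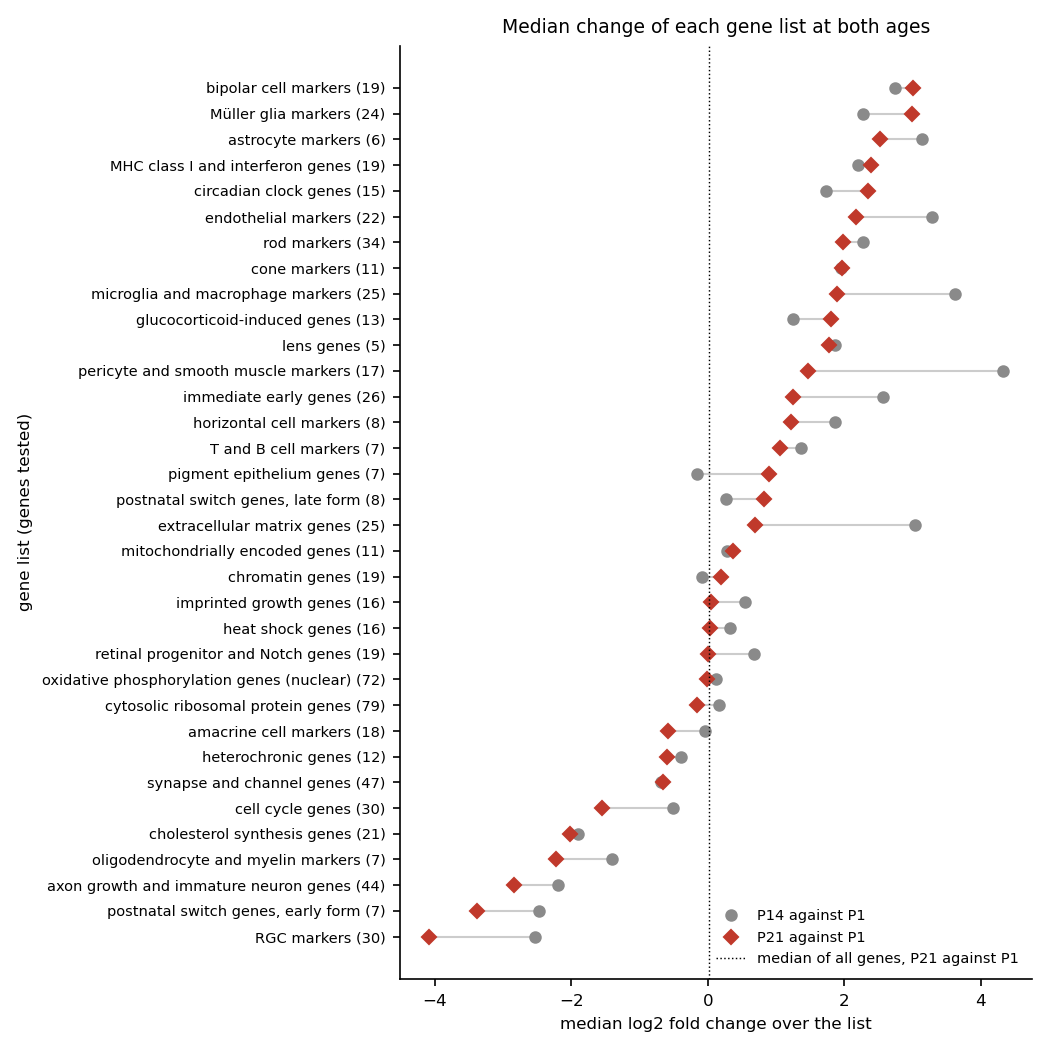
Median log2 fold change (horizontal axis) of each gene list with at least 5 genes tested, for P14 against P1 (grey circles) and P21 against P1 (red diamonds), with the number of genes tested in brackets. RGC markers are lowest at -4.09, Müller glia and bipolar markers highest at 3.00, and pericyte, microglia and extracellular matrix lists lie nearer to 0 at P21 than at P14.

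Among the 10 leading rises confined to P14 were genes of pericytes and extracellular matrix and the immediate early gene Fosb, while of the pericyte and endothelial marker lists 1 of 17 and 1 of 22 members took this course. Cd248 (chr19:5068078-5070682, plus strand), endosialin of pericytes, was at 3.61, 4.15 and 13.1 CPM at P1, 136, 128 and 116 CPM at P14, and 8.72 and 7.87 CPM at P21. It rose by 4.18 ± 0.38 to P14 (edgeR adjusted p = 5.8e-06) and fell by 3.93 to P21. The P21 values lay above P1 replicates 1 and 2 and below P1 replicate 3. With P1 replicate 3 alone for P1, its net log2 fold change was -0.66 instead of 0.25. Heyl, a Notch target of vascular smooth muscle, was at 7.49, 7.6 and 15.5, then 149, 139.6 and 127, then 19 and 12.3 CPM. Col4a1, basement membrane collagen, was at 147, 161 and 261, then 2323, 2187 and 1963, then 335 and 250.4 CPM. Ednra, C1ql2, Loxl2, Col6a3, Lama4 and Gad1 were in the same class, rising by 2.83 to 4.42 and then falling by 2.89 to 3.92. With all libraries Col6a3 and Lama4 ended below P1 (net log2 fold change -0.93 and -0.66, edgeR adjusted p = 0.0251 and 0.029), inside the fold limit. Without P21 replicate 1 their net log2 fold changes were -1.55 and -1.13, past that limit. With P1 replicate 3 alone that of Col6a3 was -1.38 and that of Lama4 just past -1. For Cd248, Col6a3 and Lama4 P1 replicate 3 was the highest P1 library (Col6a3 6.24 CPM against 3.99 and 3.48). The values with P1 replicate 3 alone rest on that library. The extracellular matrix list as a whole had 7 of 25 members confined to P14 and 12 lasting rises (median 3.04 at P14, 0.69 at P21). Sparc, a matrix protein that glia also make, did not return (356, 417 and 239.8 CPM at P1, 2891 and 2823 CPM at P21), and Lamb1, a laminin chain, crossed from 99.4, 96.9 and 116 CPM over 234, 214 and 200.1 CPM to 19.9 and 13.8 CPM.

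Immediate early genes, which are induced within minutes by activity, stress or dissociation, split between both courses. Of 26 tested, 16 rose and 3 fell at P21 (median 1.24, against 2.57 at P14), with 15 lasting rises and 6 members confined to P14. Fos was at 267, 276 and 285 CPM at P1, 1657, 1639 and 1594 CPM at P14, and 835 and 922 CPM at P21, so it fell part way back after P14 (P21 over P1 1.67 ± 0.05, edgeR adjusted p = 1.84e-08). Dusp1, a phosphatase, rose to 412, 417 and 408 CPM at P14 from 73.2, 77.6 and 73.5 CPM, and was at 253 and 275 CPM at P21. Fosb, by contrast, was at 60.6, 67 and 108 CPM at P1, 559.7, 584 and 549 CPM at P14, and 74.6 and 70.3 CPM at P21, and its net log2 fold change was -0.12 ± 0.20 (edgeR adjusted p = 0.619), or 0.18 without P1 replicate 3. Atf3, Egr2, Klf2, Klf4 and Nr4a1 were also confined to P14, and so were the inducible heat shock genes Hspa1a, Hspa1b and Hspb1, whereas of the 16 heat shock genes 6 rose and 6 fell at P21. Myc (-4.60) and Npas4 (-2.52) fell. Of the immediate early genes with a promoter window, 2 of 20 (10%) held the cyclic AMP response element, against 2.03% of all genes with a window.

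Fewer genes dipped at P14 alone. Irx6, a homeobox gene of OFF bipolar cells, was at 166, 165 and 166 CPM at P1, 43, 43.3 and 43.3 CPM at P14, and 143 and 165 CPM at P21 (to P14 -1.94 ± 0.06, from P14 1.83 ± 0.06, edgeR adjusted p = 7.39e-09 and 1.4e-06). Fkbp5 (chr17:28399094-28517527, minus strand), a chaperone induced by glucocorticoids, was at 83.5, 80.7 and 68.2 CPM at P1, 20.2, 14 and 16.8 CPM at P14, and 145 and 155 CPM at P21, and so ended 0.95 ± 0.13 above P1, just inside the fold limit. With P1 replicate 3 alone for P1 the net log2 fold change of Fkbp5 was 1.13, past that limit. Pde10a, a phosphodiesterase, was at 118, 117 and 119 CPM, then 21.5, 24.1 and 27.5 CPM, then 66.6 and 72 CPM, and had returned only in part. Nwd2, Zim1, Kcnh7, Rhou, Prr5, Csmd3 and Enho were the other 7 named. Zbtb16, another gene induced by glucocorticoids, dipped as well (17.7, 19.9 and 11.7, then 6.32, 6.77 and 7.18, then 74 and 65.1 CPM) and ended 2.08 ± 0.18 above P1. Of 13 such genes 11 rose and 2 fell over the whole span (median 1.80), the falls being of Cdkn1a (-2.42) and Sgk1 (-0.42).

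Late rises included complement and signalling genes. C4b (chr17:34728380-34743882, minus strand), a complement component, was at 9.99, 14.7 and 1.24 CPM at P1, 15.3, 14.1 and 14 CPM at P14, and 101 and 96.7 CPM at P21. Its rise from P14 was 2.77 ± 0.53 (edgeR adjusted p = 0.00351), while with P1 replicate 3 alone for P1 its net rise was 6.31 instead of 3.53. Gsg1 (chr6:135237326-135254351, minus strand), germ cell associated 1, was at 21.1, 26.6 and 2.48, then 21, 22.7 and 24.7, then 175 and 201 CPM. In both genes P1 replicate 3 lay far below P14, and P1 replicates 1 and 2 lay near it, so their late course rests on P1 replicates 1 and 2. C3, the central complement component, was at 8.27, 8.96 and 6.29 CPM at P1, 4.01, 5.64 and 6.15 CPM at P14, and 31.8 and 23.6 CPM at P21. Erbb4, the neuregulin receptor, was at 12.8, 15.4 and 4.74, then 7.87, 7.37 and 7.31, then 56.9 and 64.2 CPM, and Ptk2b, a calcium-regulated kinase, at 6.87, 7.69 and 3.72, then 5.75, 4.6 and 4.39, then 36.3 and 31 CPM. Hif3a, Arrdc2 and Pcolce2 rose by 2.31, 2.28 and 2.77 from P14. Arrdc2 was at 62.7, 64.4 and 19.8 CPM at P1 against 84.7 to 91.2 CPM at P14. Pcolce2 was at 15, 15.9 and 3.84 CPM at P1 against 15.2 to 15.9 CPM at P14. The late course of Arrdc2 and Pcolce2 thus also rests on P1 replicates 1 and 2. With P1 replicate 3 alone for P1, the net rises of Erbb4, Ptk2b, Arrdc2 and Pcolce2 were 3.67, 3.17, 4.41 and 4.78, each more than 1.5 times the fold with all P1 libraries.

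Late falls held dividing-cell genes. Top2a, the topoisomerase of S and G2 phase, was at 28.4, 26 and 29.2 CPM at P1, 14, 15.6 and 12.9 CPM at P14, and 2.47 and 1.06 CPM at P21 (P21 over P1 -3.96 ± 0.25, edgeR adjusted p = 4.58e-07). Of 30 cell cycle genes 23 fell and 1 rose (median -1.56 at P21, -0.51 at P14), and 13 of the falls were late. Members that did not pass included Pcna (0.16 ± 0.08), Mcm4 (0.08 ± 0.15) and E2f1 (0.15 ± 0.12). H19, an imprinted RNA, was at 33.6, 41.7 and 47.7, then 80.7, 78.1 and 70.4, then 10.2 and 5.62 CPM. Adcyap1, the neuropeptide PACAP of melanopsin RGCs, fell to 2.85 and 0.213 CPM from 22.2, 22.7 and 23.3 CPM, and Fibcd1, Prrt4 and Mki67 fell late as well. Without P21 replicate 1 the net log2 fold changes of Top2a, Adcyap1, Prrt4 and Mki67 were -4.75, -6.76, -3.45 and -5.62 instead of -3.96, -3.85, -2.64 and -3.76. Rpl29 was at 33.6, 31.9 and 33.2, then 26.2, 27.4 and 27.7, then 2.2 and 1.43 CPM, and stays uncertain because ribosomal protein genes have many near-identical copies that can take their reads. Of all 79 ribosomal protein genes 9 rose and 39 fell, with a median of -0.16.

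Genes known to switch during postnatal maturation of neurons were compared as early and late forms. Of 7 early forms 6 fell and 1 rose (median -3.38), and of 8 late forms 4 rose and 4 fell (median 0.82). The NMDA receptor subunit genes did not exchange. Grin2b was at 114, 111 and 119 CPM at P1, 23.2, 24.7 and 21.6 CPM at P14, and 27.8 and 22 CPM at P21, and its late partner Grin2a was at 7.75, 8.37 and 7.62 CPM, then 4.8, 5.58 and 5.03 CPM, then 1.58 and 1.7 CPM, so both fell (-2.20 ± 0.10 and -2.27 ± 0.16, edgeR adjusted p = 7.37e-08 and 9.09e-07). The chloride transporter genes both rose, Slc12a5 (KCC2, which extrudes chloride) from 418, 443 and 305 CPM to 1545 and 1729 CPM (2.07 ± 0.13) and Slc12a2 (NKCC1, which imports it) from 39, 41.3 and 38.5 CPM to 55.5 and 56.2 CPM (0.50 ± 0.08).

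For the GABA-A receptor, Gabra2 fell from 54.9, 57.4 and 55.8 CPM to 4.92 and 0.729 CPM, with a log2 fold change of -4.28 ± 0.49 (edgeR adjusted p = 2.82e-05). For vesicular glutamate transport, Slc17a6 (VGLUT2, the form of RGCs) fell from 213, 215 and 217 CPM to 13.9 and 4.01 CPM, and Slc17a7 (VGLUT1, the form of photoreceptors and bipolar cells) rose from 126, 131 and 42.7 CPM to 906 and 1003 CPM (3.25 ± 0.37). Sodium channel genes Scn3a (-3.38 ± 0.20) and Scn1a (-2.80 ± 0.15), the early and the late form, both fell, and so did the tubulin genes Tubb2b and Tubb4a (-5.09 and -2.75), Grin3a (-1.03) and Scn8a (-0.43). The glycine receptor gene Glra1 rose by 2.90 ± 0.29. Without P21 replicate 1 the log2 fold changes of Gabra2, Slc17a6 and Tubb2b were -6.30, -5.79 and -6.48, and with P1 replicate 3 alone those of Slc17a7 and Glra1 were 4.48 and 3.90. Of the 47 synapse and channel genes 34 fell and 8 rose (median -0.66), the falls including the calcium channel gene Cacna1a (-3.22 ± 0.10) and the rises including Cplx3 (3.13 ± 0.21), a complexin of ribbon synapses. RGC markers fell and bipolar and photoreceptor markers rose in the same libraries, and their part in these pairs was not tested.

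**Figure D5:**
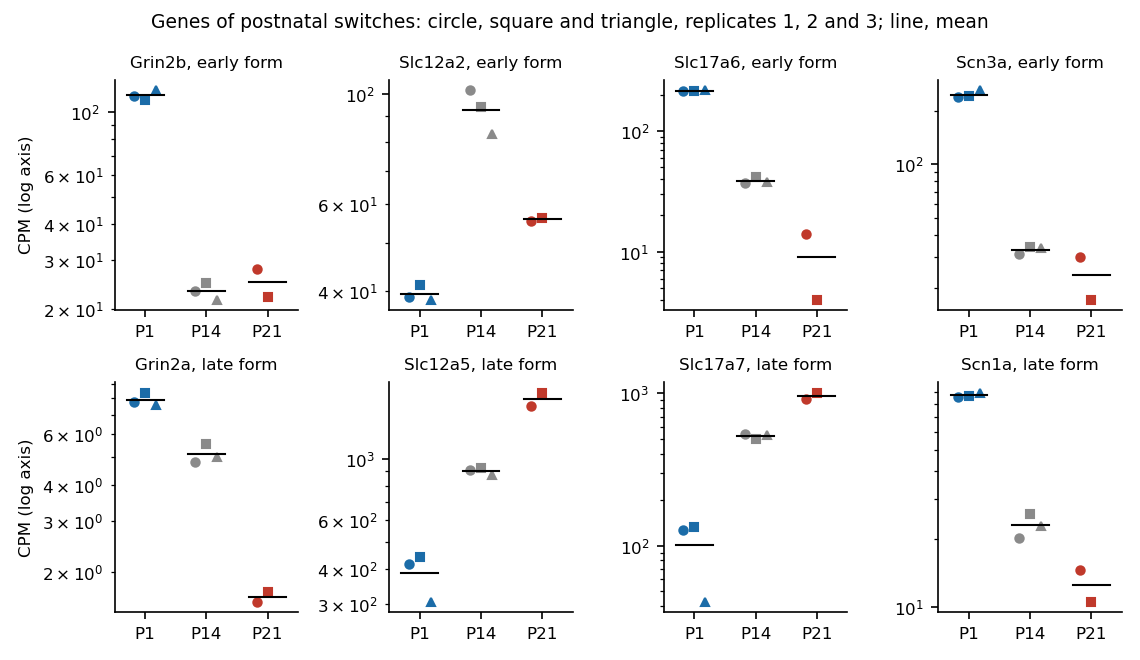
CPM (vertical log axes, scaled per gene) of 4 early forms (top) and their 4 late forms (bottom) in each library; symbols mark replicate numbers and lines are means. Grin2b and Grin2a both fall, and Slc17a6 falls as Slc17a7 rises.

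Cholesterol synthesis genes fell without exception: 21 of 21 tested were lower at P21 (median -2.03, and -1.91 at P14), 17 of them as lasting changes. Hmgcs1, which makes the precursor of mevalonate and whose promoter is printed above, was at 846, 842 and 876 CPM at P1, 82.6, 87.7 and 97.2 CPM at P14, and 83.7 and 54.6 CPM at P21 (-3.63 ± 0.17, edgeR adjusted p = 7.2e-08). From P14 to P21 the step of Hmgcs1 was -0.37 ± 0.15 and that of Acat2, a thiolase, -0.02 ± 0.07, and neither passed. The smallest fall was of Msmo1 (-0.52 ± 0.07). Hmgcs1 was the only member among 14 with a promoter window that held TCACNCCAC, 7.14% against 1.44% of all genes with a window.

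Circadian clock genes rose. Of 15 tested, 14 rose and 1 fell (median 2.34 at P21, 1.74 at P14), with 10 lasting. The output gene Dbp was at 54.8, 60.9 and 21.4 CPM at P1, 198, 194 and 210.1 CPM at P14, and 377 and 413 CPM at P21 (3.11 ± 0.33, edgeR adjusted p = 1.56e-05). Tef, a related factor whose promoter is printed above, was at 138, 137 and 99.5 CPM at P1 and 579 and 620.4 CPM at P21 (2.27 ± 0.12). The repressor gene Nr1d1 went from 111, 127 and 68.8 CPM to 533 and 576 CPM (2.44 ± 0.20), while the activator genes Arntl (0.20) and Clock (0.49) rose little and Npas2 fell by 0.32. The hour at which each library was collected is not given, and its part was not tested. The E-box was in the promoter windows of 4 of 13 members, Bhlhe41, Ciart, Cry1 and Tef (30.8%), against 8.09% of all genes with a window.

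Most heterochronic timing genes outside the nuclear factor I family fell, and the nuclear factor I genes rose. Lin28b, an RNA-binding protein of immature cells, was at 25.2, 27.7 and 25.3 CPM at P1, 1.13, 1.64 and 1.15 CPM at P14, and 1.49 and 0.0304 CPM at P21 (-5.03 ± 0.56, edgeR adjusted p = 2.31e-05). Igf2bp1, Igf2bp2, Igf2bp3 and Trim71 fell by 1.49 to 4.04, and Nfia, Nfib, Nfic and Nfix, factors of late retinal progenitors and glia, rose. Nfix was at 29.2, 34.7 and 20.8 CPM at P1, 220.4, 200.2 and 209 CPM at P14, and 229.8 and 227 CPM at P21 (3.02 ± 0.16), and its last step did not pass (0.12 ± 0.15). Of these 12 heterochronic genes 5 rose and 7 fell. Of 19 progenitor and Notch pathway genes 9 rose and 8 fell: Notch1 (2.09 ± 0.10), Rax and Cdon were lasting rises, and Fgf15, Sfrp2 and Insm1 were late falls.

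Among 16 imprinted genes 7 rose and 7 fell. Igf2, a growth factor, was at 44.9, 61.2 and 76.1 CPM, then 807, 767 and 788 CPM, then 348 and 311 CPM (2.44 ± 0.17), and the maternal RNA Meg3 fell from 4376, 4568 and 4718 CPM to 989.9 and 887 CPM (-2.28 ± 0.08). Magel2, an imprinted regulator of protein trafficking, had a fitted log2 fold change of -7.64 ± 0.44, which depends on the prior count because P21 replicate 2 is at 0, from 18.3, 22.1 and 21.4 CPM at P1 to 0.19 and 0 CPM at P21. Of 19 chromatin genes 8 rose and 8 fell, beside 34.3% and 33.4% of all genes, with a range from -3.31 to 0.65. Ezh2, the methyltransferase of H3K27, was at 44.6, 49.2 and 45.5 CPM at P1 and 25.9 and 26.2 CPM at P21 (-0.83 ± 0.07, edgeR adjusted p = 3.77e-06), and Uhrf1, of maintenance DNA methylation, fell by 3.31 (3.98 without P21 replicate 1). The H3K27 demethylase gene Kdm6b was at a log2 fold change of 0.01 ± 0.06 and did not pass.

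MHC class I and interferon genes rose in 18 of 19 cases (median 2.39), with B2m at 17.4, 19.4 and 16.6 CPM at P1 and 60.3 and 55.1 CPM at P21 (1.70 ± 0.08) and the peptide transporter gene Tap2 3.11 ± 0.17 higher. Genes of energy metabolism were counted as a nuclear and a mitochondrially encoded list, beside 34.3% of all genes higher and 33.4% lower. Of 72 nuclear oxidative phosphorylation genes 22 rose and 20 fell, near those shares, with a median of -0.01. Of 11 mitochondrially encoded genes 6 rose and 0 fell, with a median of 0.37.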

How the data were processed

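RNA from Thy1.2-sorted retinal cells was sequenced after poly-A library preparation. The authors deposited raw counts with no normalization. Per their methods and processing notes, these came from featureCounts (Subread 2.0.3) applied to HISAT2 2.2.1 alignments on build GRCm38, after trimming by Trimmomatic 0.39 and quality control by FastQC 0.11.9. The strand setting is not given in the sources used here, so overlapping and antisense genes cannot be told apart. Counts were fitted in R 4.3.3 with the quasi-likelihood test of edgeR 4.0.16 over the 8 developmental libraries, with TMM scaling, the default low-count filter and 1 mean per age, and p-values were adjusted by Benjamini-Hochberg over all 20890 genes tested. SE is the log2 fold change divided by the root of F. Total counts were 34064573 to 36962662 at P1, 30357454 to 38812917 at P14, and 36617067 and 33036113 at P21.

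Named genes were the 14 largest rises and falls among DEGs of mean log2 CPM of at least 3 without overlap, the 10 changes confined to P14 and 8 late changes that were largest in each direction, up to 5 members per list by smallest p, and the switch pairs. Other list members were named after their values were seen. Members and lists were chosen with earlier results of these data known. Replicate numbers did not pair the libraries (same-number correlations between -0.047 and 0.020), so no block was used. DESeq2 1.42.0 and limma 3.58.1 served as alternatives. Promoter windows came from RefSeq and covered 27025 symbols. Results of some genes are not reported here.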

Additional observations from a re-analysis of the deposited data

How the results depend on the processing

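Counts of calls are given first for P21 against P1, then by class. Requiring at least 10 counts in every library gave 249 higher and 50 lower changes confined to P14 and 240 late falls. Without the fold limit there were 6919 higher and 6742 lower genes, 5601 lasting rises, 5633 lasting falls, 394 falls confined to P14 and 605 late rises. With the replicate number as a block there were 124 late rises, 3787 higher and 3416 lower DEGs, and the other class counts stayed within 1.5 times. Fitting all 13 libraries together gave 31 falls confined to P14, 97 late rises and 268 late falls. Leaving out 1 library in turn gave 3830 to 4015 higher and 3469 to 3896 lower DEGs, 2852 to 3137 lasting rises, 2419 to 2665 lasting falls, 349 to 485 rises and 64 to 91 falls confined to P14, 143 to 243 late rises, 340 to 440 late falls, 699 to 828 gradual rises and 598 to 754 gradual falls. Without the 50 most abundant genes the RGC marker share at P1 was 1.10%, and the Müller glia share was 0.162% at P1 and 1.27% at P21.

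Settings with P1 replicate 3 or P21 replicate 2 alone were chosen after seeing the data, and the lone library is assumed to vary like the others. P1 replicate 3 alone gave 51 falls confined to P14. The net log2 fold change of Cd248 was then -0.66, and with both lone libraries it was -0.78, with Ednra at -0.57, Heyl at -0.38, Loxl2 at -0.59 and Col4a1 at -0.11. Fosb ranged from -0.28 to 0.18 over the libraries left out. Of the DEGs, 3 had the opposite sign without P21 replicate 1, 13 with both lone libraries, and 0 in the other settings, and between 67.1% and 100% of the calls were shared. The cause of these shifts was not tested, except that the stricter filter tests fewer genes.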

Other observations

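The 3 control libraries of the series' injury experiment came from adult mice at postnatal day 42 with floxed Kdm6a, AAV2-GFP and optic nerve crush. The study treats them as a separate dataset, and they differ from P21 in age, genotype, virus and injury together. These differences cannot be told apart, so the levels are given without a test. Their CPM were scaled by TMM over all 13 libraries, unlike the CPM given above. Some late rises were also high there. C4b was at 179.8, 255 and 249 CPM, C3 at 78.1, 128 and 130.1 CPM, Gsg1 at 153, 109.7 and 143 CPM, and Ptk2b at 32.5, 58 and 51.2 CPM. Other late rises were low. Erbb4 was between 4.88 and 7.66 CPM, Pcolce2 between 2.36 and 4.52 CPM, Hif3a between 0.902 and 3.55 CPM, and Arrdc2 between 10.8 and 25.5 CPM. Genes of other courses varied there too. Of the lasting rises, Scgn was between 257 and 399 CPM, but Mt1 between 4.58 and 5.48 CPM and Fam107a between 0.624 and 4.04 CPM. Of the late falls, H19 was between 0 and 0.208 CPM, but Top2a between 23.2 and 36.9 CPM.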
